A study of Mus musculus with 6 samples.

Results

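The growth hormone axis of the liver was examined through 10 genes, taken as all rows of the deposited expression table whose symbol is Ghr, Igf1, Igfals, Igfbp2, Igfbp3, Socs2, Cish, Stat5a, Stat5b or Bcl6. The table lists 12366 genes, and all 10 were found in it. Livers came from Acss2-/- mice (Acss2-KO, 3 libraries) and wild type mice (WT, 3 libraries). All were male C57BL/6 mice of 22 weeks, kept on chow and then fasted for 48 h, and total RNA was sequenced. Acss2 encodes the enzyme that turns acetate into acetyl-CoA in the cytosol and nucleus, and the sources used here do not say how the mutant allele was made. Which animal gave which library is not stated, and the p-values below therefore reflect variation among the libraries, some of it perhaps technical.

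Growth hormone binds its receptor (Ghr) on hepatocytes, which activates the kinase JAK2 and then the transcription factors STAT5A and STAT5B. STAT5B carries most of the signal in liver, where it switches on Igf1, the acid-labile subunit gene Igfals and the feedback inhibitors Socs2 and Cish. BCL6 is a repressor that binds the same kind of DNA site as STAT5, and growth hormone is known to lower its transcript in mouse liver. Circulating IGF1 is carried by IGFBP3 and the acid-labile subunit in one large complex, while IGFBP2 forms smaller ones. Fasting is known to lower hepatic growth hormone action and circulating IGF1.

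The promoter windows of these genes were searched for TTCNNNGAA, the palindromic core that STAT5 and BCL6 can both bind, which reads the same on both strands. RefSeq windows (GRCm38.p6) reach from 250 bases before a gene's start to 50 bases after it and are 300 bases long. They were present for 9 of the 10 genes, all but Socs2. Of all 32851 windows 8.3% hold the core, and 0.457% hold it at least 2 times. It was found in 5 of the 16 windows of the axis genes, in Bcl6, Igfals and Cish. The windows of Ghr, Igf1, Igfbp2, Igfbp3, Stat5a and Stat5b hold no match, which says only that these letters are absent there. In the only Igf1 window all of the 250 bases before the start match the gene's own transcripts. The sequence before the outer start of Igf1 was therefore not searched. For Stat5a, and for a window each of Stat5b and Igfbp2, part of those bases matches the gene's own transcripts too. A match is a description of the sequence and not a measured binding site. The sequences follow, 5′ to 3′ on the strand of the gene, with the core in capitals. Both Bcl6 stretches and the second Igfals stretch are the 250 bases before a start. The first Igfals sequence and the Cish sequence are 25-base sites, because part or all of the 250 bases before those starts matches the gene's own transcripts.
Bcl6, outer start (chr16:23988853-23989102, minus strand): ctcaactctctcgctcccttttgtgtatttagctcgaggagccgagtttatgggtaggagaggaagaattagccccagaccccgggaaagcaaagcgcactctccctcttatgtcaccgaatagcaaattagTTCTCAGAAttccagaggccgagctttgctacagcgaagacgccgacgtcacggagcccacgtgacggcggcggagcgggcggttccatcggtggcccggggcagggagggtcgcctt
Bcl6, inner start (chr16:23981284-23981533, minus strand): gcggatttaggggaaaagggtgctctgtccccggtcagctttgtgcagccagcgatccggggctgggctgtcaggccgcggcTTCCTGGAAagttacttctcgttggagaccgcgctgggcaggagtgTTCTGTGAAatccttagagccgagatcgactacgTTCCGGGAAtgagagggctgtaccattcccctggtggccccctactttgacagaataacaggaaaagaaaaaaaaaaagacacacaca
Igfals, outer start (chr17:24877600-24877624, plus strand): tctataatTTCTCAGAAaagaggct
Igfals, inner start (chr17:24877981-24878230, plus strand): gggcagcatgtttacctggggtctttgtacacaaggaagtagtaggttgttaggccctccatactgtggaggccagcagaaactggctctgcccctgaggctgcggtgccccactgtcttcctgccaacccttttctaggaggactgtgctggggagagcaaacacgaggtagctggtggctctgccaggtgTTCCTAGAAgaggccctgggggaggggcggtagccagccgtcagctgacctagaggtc
Cish (chr9:107296659-107296683, plus strand): TTCCTGGAAagTTCTTGGAAatctg

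The inner Bcl6 window is the one with 3 cores, which begin at positions -168, -122 and -88 before that start. The outer Bcl6 window has 1, at -118. The Igfals cores begin at -236 and -58, and the Cish pair at 1 and 12, each counted from the start used for its window. The deposited Cish gene begins earlier, at 107296026, so the Cish start used is an internal one.

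Deposited values are log2 CPM (a gene's reads as a share of the library, so that every library has the same total), with anything under 1 CPM listed at 0. Depth, estimated from the spacing of low values, was such that 5 CPM stands for 109 to 143 reads in Acss2-KO libraries and 117 to 154 reads in WT libraries. The targeted gene Acss2 was at 1.37, 3.56 and 2.35 CPM in Acss2-KO, against 74.0, 81.0 and 73.5 CPM in WT. Hepatocyte markers summed to 112300 to 123900 CPM in Acss2-KO and 85590 to 106800 CPM in WT, without overlap. Of 9 tested, 3 rose (Cps1, log2 fold change 2.23, Tat, 1.66, and Ass1, 1.27) and 2 fell (Ttr, -1.80, and Serpina1c, -0.998). Serpina1c belongs to a family of close copies, so its level is uncertain. Without Acss2-KO replicate 3, WT replicate 2 or WT replicate 3, 4 of these 5 calls were left. Alb was at 74761 to 81811 CPM in Acss2-KO and 62432 to 81246 CPM in WT and did not pass. Of 5 tested erythroid markers 5 fell, with summed levels of 41.2 to 67.0 CPM in Acss2-KO and 162 to 281 CPM in WT. Hba-a2 and Hbb-bt among them averaged 4.83 and 3.39 CPM in Acss2-KO. Only through WT did they reach the 5 CPM average needed for testing. Of 4 tested leukocyte markers 3 fell (summed levels 55.4 to 101 CPM in Acss2-KO, 163 to 359 CPM in WT). Of 9 tested Kupffer cell markers 3 fell (113 to 187 CPM in Acss2-KO, 214 to 632 CPM in WT), and WT replicate 2 held the highest sum of both lists. Ptprc among the leukocyte calls and Adgre1 among the Kupffer calls (means of 3.01 and 4.04 CPM in Acss2-KO) also reached that average only through WT. The erythroid, leukocyte and Kupffer counts are therefore no support for a change of these lists. Beside all these marker counts, 36.5% of all tested genes passed, 13.4% higher and 23.1% lower in Acss2-KO. None of the Kupffer calls was left without Acss2-KO replicate 3 or WT replicate 2, and 1 was left without Acss2-KO replicate 1 or WT replicate 3 or with median-of-ratios scaling; of the leukocyte calls 1 was left without Acss2-KO replicate 1 or 3 or WT replicate 2.

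Genes averaging 5 CPM or more over the 6 libraries were tested with limma on log2(CPM + 1), and p-values were adjusted by Benjamini-Hochberg over all 9355 of them, with a threshold of 0.05. Of the 10 axis genes 9 were tested, 3 rose (Socs2, Igfbp3 and Igfbp2) and 3 fell (Ghr, Igfals and Stat5b). Igf1, Stat5a and Bcl6 did not pass, and Cish was too low to be tested. Over all tested genes 36.5% passed, 13.4% higher and 23.1% lower in Acss2-KO. The same 6 genes are those whose libraries did not overlap between the genotypes, and 52.9% of all tested genes did not overlap, 20.1% with Acss2-KO above and 32.8% with Acss2-KO below. Across the tested genes the median log2 fold change was -0.12. With median-of-ratios scaling it was 0.01, and the split of 1252 higher and 2161 lower became 1756 and 1669, with all 6 calls of the axis unchanged. The plot of levels by library shows each value.

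**Figure D1:**
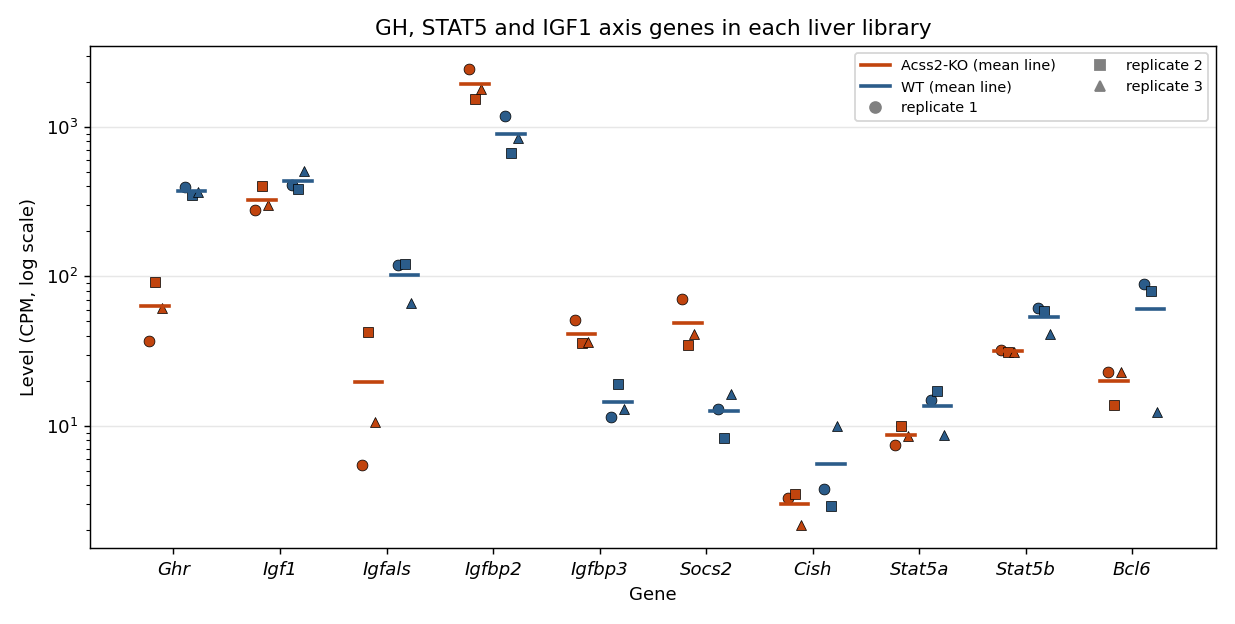
Level of each of the 10 axis genes in CPM (log axis) in every library, with Acss2-KO on the left and WT on the right of each pair, marker shapes for replicates and a bar at each group's mean. Ghr, Igfals and Stat5b sit lower in all 3 Acss2-KO libraries, Socs2, Igfbp2 and Igfbp3 sit higher, and the Bcl6 value of WT replicate 3 (12.5 CPM) lies below the Acss2-KO values.

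The receptor transcript was strongly reduced. Ghr (ENSMUSG00000055737, chromosome 15, 3317760 to 3583492) was at 37.3, 91.8 and 61.8 CPM in Acss2-KO replicates 1 to 3, against 396, 352 and 367 CPM in WT replicates 1 to 3. The WT libraries lie close together, and the highest Acss2-KO library is far below the lowest WT one. Means were 63.6 ± 27.3 CPM in Acss2-KO and 372 ± 22.4 CPM in WT (SD, n = 3 each), and the fitted level was 6.14-fold lower, with a log2 fold change of -2.62 (SE 0.30, limma adjusted p = 0.00074). It passed under all 16 alternatives. In bulk liver RNA, fewer cells of a type and less RNA per cell cannot be told apart.

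Stat5b, the main STAT5 of the liver, fell by a smaller amount. Stat5b (chromosome 11, 100780731 to 100850724) was at 32.2, 31.3 and 31.3 CPM in Acss2-KO, against 61.4, 58.9 and 41.1 CPM in WT. The Acss2-KO libraries are nearly equal (31.6 ± 0.509 CPM, SD, n = 3), and WT (53.8 ± 11.1 CPM, SD, n = 3) is spread by its replicate 3. The log2 fold change was -0.73 (SE 0.19, limma adjusted p = 0.018). The call was lost without Acss2-KO replicate 3 (adjusted p = 0.067), WT replicate 1 (0.072) or WT replicate 2 (0.067).

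Stat5a, its neighbour on chromosome 11 (100859351 to 100885169), was at 7.41, 9.99 and 8.57 CPM in Acss2-KO, against 14.9, 17.03 and 8.75 CPM in WT. WT replicate 3 lies within the Acss2-KO range. The log2 fold change was -0.55 (95% interval -1.11 to 0.00, limma adjusted p = 0.11), and without WT replicate 3 it was -0.82 with an adjusted p of 0.024. The 2 genes have similar sequences: 14.7% of the 50-base words in Stat5a coding transcripts also occur in Stat5b, and 11.1% of those of Stat5b in Stat5a. The sources used here do not say how reads matching both were counted, so small differences between them are uncertain.

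Igf1, the hormone output of the axis, stayed within the spread of the libraries. It (chromosome 10, 87858265 to 87937042) was at 276, 402 and 300.2 CPM in Acss2-KO, against 410.1, 383 and 508 CPM in WT. Acss2-KO replicate 2 lies above WT replicate 2, so the groups overlap. Means were 326 ± 66.6 CPM in Acss2-KO and 434 ± 66.1 CPM in WT (SD, n = 3 each). The log2 fold change was -0.42 (95% interval -0.92 to 0.08, limma adjusted p = 0.16), and it did not pass under any of the 16 alternatives (adjusted p 0.064 to 0.41). The interval excludes a fall of the size seen for Ghr. Whether the 2 changes differ was not tested.

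Igfals, the carrier subunit that growth hormone controls in hepatocytes, fell with a wide spread. It (chromosome 17, 24878770 to 24882008) was at 5.46, 42.5 and 10.6 CPM in Acss2-KO, against 119, 120.3 and 66.7 CPM in WT. Acss2-KO replicate 2 stands well above the other Acss2-KO libraries and still below every WT library. The level was 6.71-fold lower (log2 fold change -2.75, SE 0.74, limma adjusted p = 0.036). The call was lost without Acss2-KO replicate 3 (adjusted p = 0.11), WT replicate 1 (0.13) or WT replicate 2 (0.14). Its log2 fold change was -2.15 if Acss2-KO replicate 1 was dropped and -3.52 if replicate 2 was.

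Both IGF binding proteins among the axis genes rose. Igfbp3 (chromosome 11, 7206086 to 7213923), which carries IGF1 in the large complex, was at 50.9, 35.8 and 36.3 CPM in Acss2-KO, against 11.6, 19.03 and 12.9 CPM in WT. The lowest Acss2-KO library exceeded the highest WT library, and the level was 2.73-fold higher (log2 fold change 1.45, SE 0.23, limma adjusted p = 0.0025, passing under all 16 alternatives). In liver, IGFBP3 is known, chiefly from rat, to be made by sinusoidal and Kupffer cells and not by hepatocytes. Beside this rise, sinusoidal endothelial markers summed to 430.3 to 559 CPM in Acss2-KO and 339.6 to 559 CPM in WT, with 2 of 10 lower (Clec4g and Gpr182) and 1 higher. That 1 was Lyve1, a hyaluronan receptor gene, at 70.03, 26.9 and 53.4 CPM in Acss2-KO, against 6.28, 11.5 and 4.96 CPM in WT (log2 fold change 2.55, SE 0.39). All 10 were detected in every library, and of all tested genes 36.5% passed, 13.4% higher and 23.1% lower. The Kupffer sums were lower, as given above. The part of these cells in the Igfbp3 difference was not tested.

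Igfbp2 (chromosome 1, 72824503 to 72852474), a binding protein made by hepatocytes, was at 2452, 1531 and 1795 CPM in Acss2-KO, against 1176, 666 and 843 CPM in WT. The genotypes did not overlap, and the level was 2.17-fold higher (log2 fold change 1.12, SE 0.27, limma adjusted p = 0.014). The call was lost without Acss2-KO replicate 3 (adjusted p = 0.0504) or WT replicate 2 (0.058).

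Of the feedback inhibitors, Socs2 rose and Cish could not be tested. Socs2 (chromosome 10, 95385362 to 95417180), whose protein damps growth hormone receptor signalling and helps to degrade the receptor, was at 70.5, 34.5 and 41.4 CPM in Acss2-KO, against 12.9, 8.28 and 16.4 CPM in WT. Each Acss2-KO library held more than 2 times the level of the highest WT library. The level was 3.63-fold higher (log2 fold change 1.86, SE 0.31, limma adjusted p = 0.0033). It passed under all 16 alternatives. Of the 50-base words of Socs2 transcripts 6.15% also occur in another gene model, Gm9847.

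Cish (chromosome 9, 107296026 to 107302784), a related inhibitor and a rapid STAT5 target, was at 3.32, 3.51 and 2.16 CPM in Acss2-KO, against 3.81, 2.93 and 9.92 CPM in WT. These levels stand for about 95, 90 and 47 reads in Acss2-KO and 110, 90 and 232 reads in WT. WT replicate 3 stands alone, and the other 5 libraries are at 2.16 to 3.81 CPM. Acss2-KO replicate 3 is the lowest, and its read estimate is the least certain. Cish fell below the minimum of 5 CPM, and with no minimum its adjusted p was 0.24 by limma. Whether Socs2 and Cish differ in their response was not tested.

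**Figure D2:**
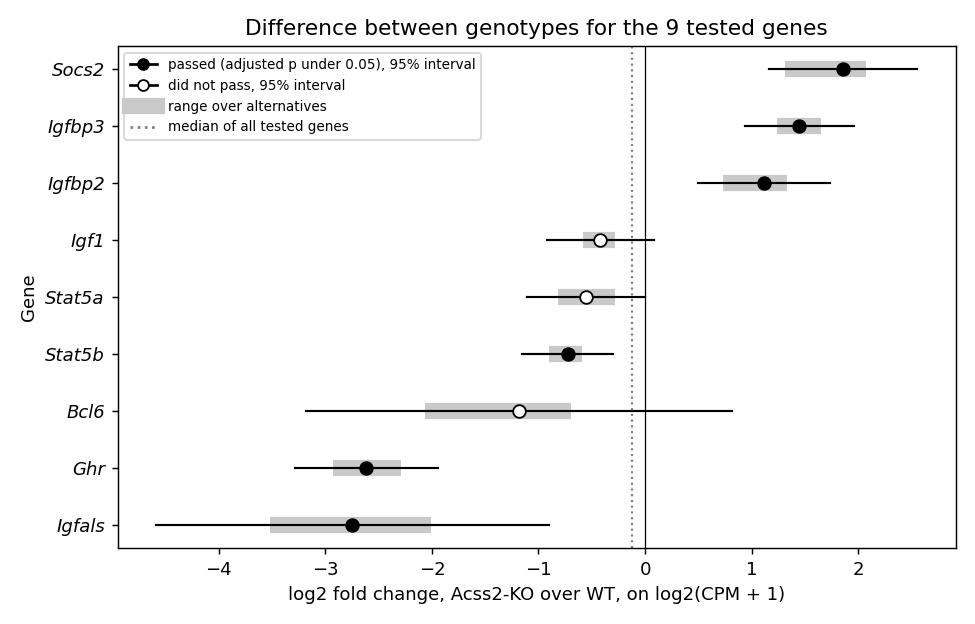
Log2 fold change (Acss2-KO over WT, on log2(CPM + 1)) of the 9 tested axis genes, with limma 95% intervals, filled points for an adjusted p under 0.05 and grey bars for the range over the alternatives. Socs2 (1.86), Igfbp3 (1.45) and Igfbp2 (1.12) lie right of 0, Ghr (-2.62) and Igfals (-2.75) lie farthest left, and the interval of Bcl6 is wide (-3.18 to 0.82).

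Bcl6 was divided within the WT group. The gene (chromosome 16, 23965052 to 23988852) was at 22.9, 13.7 and 22.8 CPM in Acss2-KO, against 89.3, 79.3 and 12.5 CPM in WT. WT replicate 3 is below all 3 Acss2-KO libraries, while WT replicates 1 and 2 are above them. The log2 fold change was -1.18 (95% interval -3.18 to 0.82, limma adjusted p = 0.29). Without WT replicate 3 it was -2.07 with an adjusted p of 0.0096.

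WT replicate 3 was then set beside the mean of WT replicates 1 and 2 for each axis gene, a comparison chosen after these values were seen. Bcl6 was 6.76-fold lower there, and 0.289% of tested genes were as low or lower. Cish was 2.94-fold higher, and 0.278% of tested genes were as high or higher. Socs2 was 1.55 times and Igf1 1.28 times the mean of the other WT libraries, against 5.12% and 14.7% of tested genes as high or higher. Stat5a was 1.83-fold, Igfals 1.80-fold and Stat5b 1.46-fold lower in WT replicate 3, with 3.10%, 3.39% and 13.8% of tested genes as low or lower. Ghr was at 0.981 of the other libraries. WT replicate 3 was the highest WT library for Cish, Socs2 and Igf1, and the lowest for Bcl6, Igfals, Stat5a and Stat5b. Over all tested genes it was the highest for 30.2% and the lowest for 51.1%. One library is no replicated comparison, and no test was made.

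**Figure D3:**
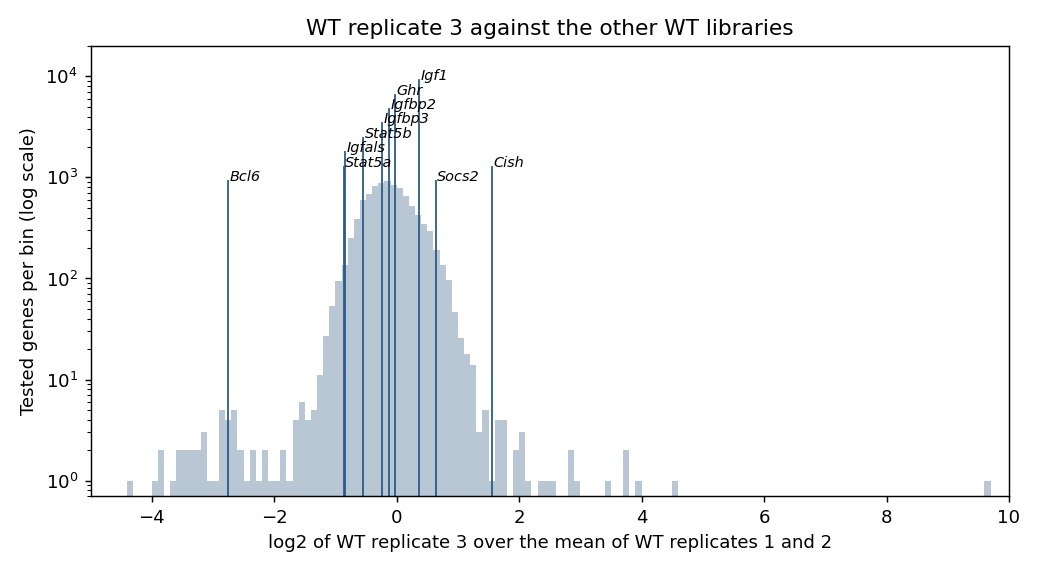
Histogram of log2 of WT replicate 3 over the mean of WT replicates 1 and 2 for the 9355 tested genes (log count axis), with lines for the 10 axis genes. Bcl6 (-2.76) lies in the far left tail, Cish (1.56), which was not itself among the tested genes, lies in the right tail, and Ghr, Igfbp2 and Igfbp3 lie near the centre.

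The Acss2-KO libraries differed in degree. Acss2-KO replicate 2 was the one nearest to the WT mean for 8 of the 10 axis genes, all but Stat5b and Bcl6. It had the highest Ghr, Igf1 and Igfals and the lowest Igfbp2, Igfbp3 and Socs2 of its group. Over all tested genes the same library was nearest to the WT mean for 60.5%.

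In the rest of the receptor pathway, 20 of 24 listed genes were tested, and 2 rose and 4 fell. The median log2 fold change was 0.08. Of all tested genes 36.5% passed, 13.4% higher and 23.1% lower in Acss2-KO, so these counts do not set the list apart. Prlr, the prolactin receptor and a close relative of Ghr, was at 16.3, 40.5 and 14.1 CPM in Acss2-KO, against 152, 155 and 88.0 CPM in WT (log2 fold change -2.54, SE 0.40, limma adjusted p = 0.0037). All Acss2-KO libraries lie below all WT libraries, as for Ghr. Socs7, another member of the SOCS family, was at 41.9, 34.8 and 41.4 CPM in Acss2-KO, against 16.6, 14.4 and 13.6 CPM in WT (1.35, SE 0.16, adjusted p = 0.00093). Jak2, the kinase bound to the receptor, did not pass (16.2 ± 1.85 CPM in Acss2-KO, 19.3 ± 2.17 CPM in WT, SD, n = 3 each; log2 fold change -0.24, 95% interval -0.62 to 0.14). Socs3, the inhibitor induced by STAT3, did not pass either (0.18, 95% interval -0.22 to 0.57).

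Among the other genes of that list past the threshold, 3 were named after their values were seen: Stat3, the factor downstream of interleukin 6 (log2 fold change 0.77), the tyrosine phosphatase gene Ptpn6 (-0.95) and the kinase gene Lyn (-0.70). The last pair are leukocyte genes too, and the summed level of leukocyte markers was lower in Acss2-KO, as given above. The part of these cells was not tested. Without Acss2-KO replicate 1 the adjusted p was 0.075 for Stat3, 0.052 for Ptpn6 and 0.070 for Lyn, and without Acss2-KO replicate 3 it was 0.078, 0.056 and 0.079, which left 3 of the 6 calls of the list each time. Stat3 was also lost without WT replicate 1 (0.063) or 3 (0.066), Ptpn6 without WT replicate 1 (0.051) or 2 (0.062), and Lyn without WT replicate 2 (0.090) or 3 (0.0505) and with quantile normalization (0.051).

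Among the other IGF system genes, 10 of 15 were listed in the table and 6 were tested. Only Igf2r passed (median log2 fold change -0.41), beside 36.5% of all tested genes. Igf2r, which clears IGF2, was at 19.4, 36.3 and 28.4 CPM in Acss2-KO, against 79.3, 85.0 and 35.3 CPM in WT (-1.16, SE 0.36, limma adjusted p = 0.036). Acss2-KO replicate 2 lies just above WT replicate 3, so the groups overlap. The call was lost without Acss2-KO replicate 1 (adjusted p = 0.091) or 3 (0.092) and without WT replicate 1 (0.11) or 2 (0.11).

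Igfbp1, the binding protein that fasting and low insulin raise, was at 3541, 383 and 2120.2 CPM in Acss2-KO, against 452, 99.7 and 313 CPM in WT. Acss2-KO replicate 2 lies within the WT range, and the test was not passed (log2 fold change 2.55, 95% interval -0.02 to 5.12, limma adjusted p = 0.11). Without that library the adjusted p was 0.010. Insr, the insulin receptor, did not pass (117 ± 15.4 CPM in Acss2-KO, 169 ± 45.1 CPM in WT, SD, n = 3 each; adjusted p = 0.13), and passed without WT replicate 3 (0.027). Igfbp4 did not pass (log2 fold change -0.38, adjusted p = 0.21). Igf1r was at 1.37 to 3.32 CPM in Acss2-KO and at most 1.15 CPM in WT, and was not tested.

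Sex-biased genes are a downstream readout of the growth hormone axis, since the male pulses and the female continuous pattern of the hormone act on them through STAT5B and BCL6. Of 17 male-biased genes 12 were tested, with 4 higher and 4 lower and a median log2 fold change of -0.06. Of all tested genes 36.5% passed, 13.4% higher and 23.1% lower. Slco1a1, an organic anion uptake transporter, was at 15.8, 20.97 and 15.9 CPM in Acss2-KO, against 169, 125 and 265 CPM in WT, 9.72-fold lower on the fitted scale (-3.28 in log2, SE 0.27, limma adjusted p = 0.00023). Nudt7, a coenzyme A hydrolase of peroxisomes, fell (-1.31, SE 0.27, adjusted p = 0.0075). Hsd3b5, a steroid dehydrogenase, was listed at 0 in each Acss2-KO library, against 8.75, 5.86 and 4.59 CPM in WT. Moxd1 went the other way, at 6.41, 21.6 and 7.73 CPM in Acss2-KO and listed at 0 in all 3 WT libraries. It reached the 5 CPM minimum only through Acss2-KO, so its place among the 4 higher genes is no support for a change.

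The other male-biased genes past the threshold were named after their values were seen. The elongase gene Elovl3 fell (log2 fold change -2.30), as did the hydroxylase gene Cyp4a12a (-1.34). Serpina1e (1.93), Cyp2d9 (0.77) and the complement gene C6 (0.61) rose. Cyp4a12a, Cyp2d9 and Serpina1e belong to families of close copies, so their levels are uncertain. Only 4 of the 8 calls were left without Acss2-KO replicate 3, 5 without WT replicate 1 and 4 without WT replicate 2. Elovl3 and Serpina1e lost theirs without each of these libraries (adjusted p 0.064, 0.071 and 0.069 for Elovl3; 0.058, 0.055 and 0.057 for Serpina1e). Cyp2d9 lost its call without Acss2-KO replicate 1 (0.083) or 3 (0.061) and without WT replicate 2 (0.077) or 3 (0.057). C6 lost its call whichever library was left out (0.057 to 0.13).

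Of 22 female-biased genes 10 were listed in the table and 7 were tested. All 7 passed, 4 higher and 3 lower, with a median log2 fold change of 1.30. Beside them, 36.5% of all tested genes passed, 13.4% higher and 23.1% lower. Fmo2, a flavin monooxygenase, was at 142, 95.7 and 177 CPM in Acss2-KO, against 44.9, 34.5 and 34.1 CPM in WT (1.81, SE 0.24, limma adjusted p = 0.0014). Abcd2, a peroxisomal fatty acid transporter, was at 3.68, 12.8 and 8.69 CPM in Acss2-KO, against 51.6, 60.1 and 44.3 CPM in WT (-2.62, SE 0.36, adjusted p = 0.0019). Cyp2b9 was listed at 0 in each Acss2-KO library, against 41.1, 31.8 and 11.5 CPM in WT. Cyp2a4 and Slc22a26 were also listed at 0 in Acss2-KO, against at most 2.19 and 2.11 CPM in WT. Other genes past the threshold, named after their values were seen, included Cyp17a1, a steroid hydroxylase (2.22), the repressor gene Cux2 (1.30) and the thioesterase gene Acot3 (-2.09). Among the 7, Cyp2b9 reached the 5 CPM minimum only through WT and Cux2 only through Acss2-KO, so the count of 7 is no support for a change of the list. Both sex-biased lists held calls in each direction.

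Liver transcription factors that act with STAT5 were tested for 8 of 9 genes, with 3 lower and none higher. The median log2 fold change was -0.08. That count is close to the 36.5% of all tested genes that passed (13.4% higher and 23.1% lower). Cebpa, a factor of hepatocyte differentiation, fell, with no overlap of the groups, to 164 ± 25.9 CPM in Acss2-KO, against 341 ± 59.8 CPM in WT (SD, n = 3 each; -1.05, SE 0.21, limma adjusted p = 0.0067). Ppara, the fasting-activated lipid receptor, fell as well (-1.07, SE 0.24, adjusted p = 0.0093). Foxa2 was at the edge of the threshold (-0.46, adjusted p = 0.048), and its call was lost under median-of-ratios (0.12), upper-quartile (0.078), trimmed-mean (0.12) and quantile (0.11) scaling. It was also lost without Acss2-KO replicate 2 (0.090) or 3 (0.16) and without WT replicate 1 (0.12), 2 (0.14) or 3 (0.063).

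**Figure D4:**
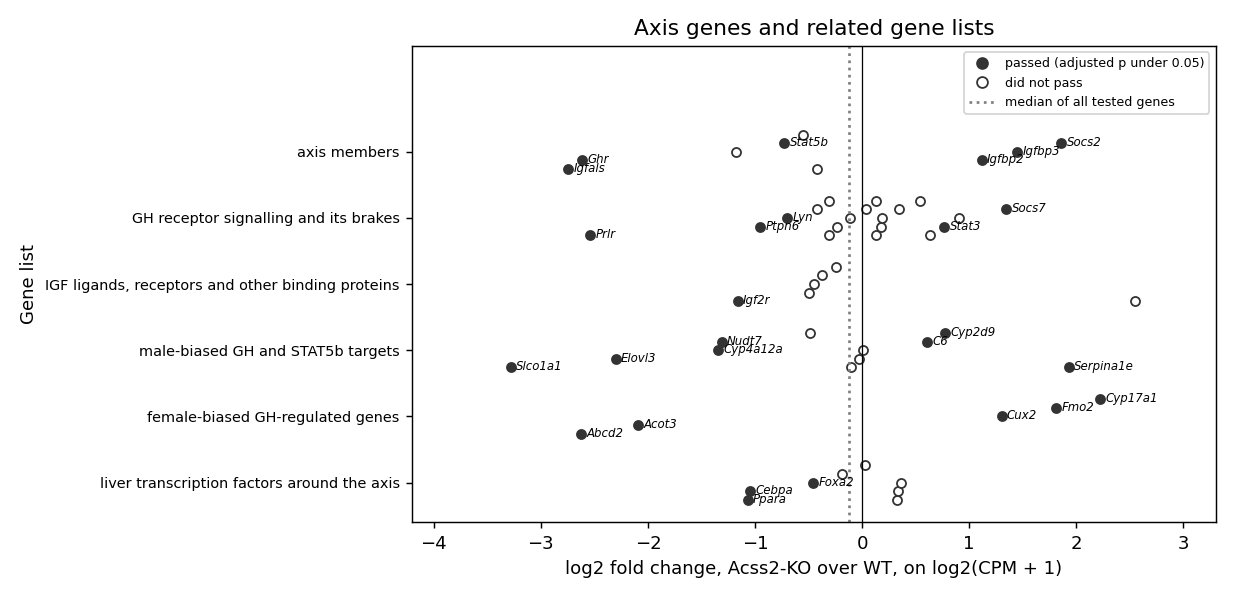
Log2 fold change (Acss2-KO over WT, on log2(CPM + 1)) of tested genes described here, by row for the axis genes and 5 related lists, with filled and named points for an adjusted p under 0.05 and a dotted line at the median of all tested genes (-0.12). Cyp2b9 and Moxd1, listed at 0 in a whole genotype, are not drawn. Points lie on both sides of 0 in the axis and in both sex-biased lists.

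The genes whose pattern over the 6 libraries was most like that of Igf1 were Anp32a, Xrcc5 and Psmd14, with Pearson r of 0.996, 0.993 and 0.990 on log2(CPM + 1). Each shared with Igf1 the overlap of the genotypes and the highest value in WT replicate 3. These r values rest on 6 libraries of the same fit and are given as a description.

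Set beside these fits, the authors' deposited table gives 6 of the 10 axis genes an adjusted p under 0.05, 3 higher and 3 lower in Acss2-KO. The deposited table has Bcl6 among them (log2 fold change -1.45, adjusted p = 0.00068) and not Stat5b (-0.61, adjusted p = 0.22), and the other 5 are the same genes as above. For Igf1 the deposited table gives -0.26 and 0.65, and for Cish it gives -0.74 and 0.14.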

How the data were processed

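Liver RNA of 3 Acss2-KO and 3 WT libraries was prepared for sequencing with a TruSeq RNA kit, per the labels' protocols. Each library's deposited values are log2 CPM with 2 decimals, in which the authors list anything under 1 CPM at 0. The unit was inferred from the table, as the unlogged columns total 997100 to 997900. The authors' own log2 fold changes and p-values are deposited too, made with a tool that the sources used here do not name. The submitters' processing notes name Bowtie 0.12.2 and mm8 without saying what each was used for. For 11623 genes the deposited start is a median of 8 bp away from that in RefSeq GRCm38.p6, and deposited coordinates were therefore read as GRCm38. The sources used here do not name the annotation or say how antisense or multiply matching reads were treated. In RefSeq, unnamed or antisense noncoding genes overlap Ghr, Igf1, Igfals, Socs2 and Bcl6, and the one listed in the table, Igf1os, was at most 2.36 CPM.

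Library depth was inferred from the spacing of low values (28.6, 25.6 and 21.8 M reads for Acss2-KO, 28.8, 30.8 and 23.3 M reads for WT). Whole reads could not be recovered from log values with 2 decimals. For Acss2-KO replicate 3 another depth matched the spacing nearly as well (score 0.822 against 0.954). Its depth and read numbers are therefore less certain than those of the other libraries, where the next-best score was at most 0.342. Values were turned into CPM, a listed 0 was set to 1 CPM, and genes averaging 5 CPM or more were fitted on log2(CPM + 1) with limma 3.58.1 (robust, with a mean-variance trend, statmod 1.5.0, R 4.3.3), with Benjamini-Hochberg adjustment. Such fold changes understate the change of low genes. Since the values were not counts, the planned limma fit was used and no count model. The fit was tested on simulated data. Shared words were counted in GENCODE M1 coding transcripts.

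The axis genes, the gene lists and the alternatives were chosen with earlier results of these data known. Named were all axis genes, Acss2, from each list the 3 passing genes of smallest p, listed genes at 0 in a whole genotype, and the 3 genes most correlated with Igf1. Results for 2 listed genes that the rule or the lists would name are not reported here. Jak2, Socs3, Igfbp1, Insr, Igfbp4, Igf1r and the genes so marked were named after their values were seen. Stellate cell markers (3 of 8 tested lower, none higher) and cholangiocyte markers (1 higher and 1 lower of 2 tested) were also summarised. Among these calls, Lrat and Col3a1 reached the 5 CPM minimum only through WT and Sox9 only through Acss2-KO. These counts are therefore no support for a change of the lists.

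Replicate numbers did not pair the samples: same-numbered libraries deviated from their group means with correlations of -0.10, -0.14 and 0.09 across genes for replicates 1, 2 and 3.

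Alternatives were other pseudocounts, scalings and filters, libraries left out, and the replicate number as a block.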

Additional observations from a re-analysis of the deposited data

How the results depend on the processing

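The sign of each of the 9 tested axis genes was the same in all 143 refits over the 16 alternatives (Cish was not among them). Among these, the changed filters and the replicate block leave the log2 fold change as it was, so they could not alter a sign. Ghr, Igfbp3 and Socs2 passed under each alternative. All 6 calls held under both other pseudocounts (0.5 and 5), the 4 scalings, no filter and a minimum of 20 CPM. Leaving out single libraries gave 3 to 8 axis genes past the threshold, 2 to 3 higher and 1 to 5 lower. When Acss2-KO replicate 1 and WT replicate 2 were dropped together, 3 axis genes passed, 2 higher and 1 lower, and adjusted p was 0.31 for Igfals, 0.13 for Igfbp2 and 0.084 for Stat5b. Under that setting 15 genes of the 5 related lists passed, 14 of them among the 25 that passed with all libraries, with Prlr at 0.067 and Stat3 at 0.074, and single libraries left out gave 15 to 24. Over all genes it gave 2034 changed genes, 715 higher and 1319 lower, against 3413, 1252 and 2161 with all libraries. Single libraries left out gave 1758 to 4028 changed genes, 519 to 1608 higher and 1239 to 2420 lower. A minimum of 20 CPM, which tests fewer genes, gave 1853, 741 and 1112. Where calls were lost by leaving out libraries, fewer samples were tested; no other cause was tested. With the replicate number as a block, which the labels do not establish as a pairing, 5 axis genes passed. The block ended the Igfals call (adjusted p = 0.054) and those of Elovl3 (0.057) and Foxa2 (0.081), and Igfbp1 passed (0.00012). The low level of Cish, 47 to 232 reads, limits what can be said of it.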
